A study of Mus musculus with 8 samples.

Results

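The genes described here are the 10 core genes of Notch signalling named for this account: the receptors Notch1, Notch2, Notch3 and Notch4, the ligands Dll1, Dll4, Jag1 and Jag2, and the target genes Hey1 and Hey2. They were taken by symbol from the 24675 named genes of the deposited table by a rule that uses no measured value, though with earlier results of these data known, and all 10 are in it, with 1 row each. The samples are ventral tissue, lying below the dorsal aorta, and dorsal tissue, lying from the aortic roof up to the notochord, of C57Bl/6 mouse embryos at embryonic day 12.5. No gene was altered and no agent was given. Both tissues were cut by laser from unfixed frozen sections of the same embryos and hybridised to Affymetrix mouse Gene 2.0 ST arrays, 4 arrays per tissue, numbered 1 to 4 in each. Values are log2 RMA intensities, and the differences below are ventral minus dorsal.

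Notch receptors are single-pass membrane proteins that are cut when a ligand of the Delta-like (Dll) or Jagged (Jag) family on a neighbouring cell binds them. The metalloproteinase Adam10 makes the first of these cuts and the gamma-secretase complex the next, and the freed intracellular part enters the nucleus, where it joins the DNA-binding protein Rbpj and switches on targets such as the Hey and Hes repressors. In the embryonic aorta the pathway is known for its part in arterial identity, in the emergence of blood stem cells from endothelium and in the build-up of the smooth muscle wall.

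The sequence shown is the promoter of Hey2, the gene of the 10 whose groups were farthest apart. RefSeq promoter windows (GRCm38.p6), which run from 250 bases before the gene's start to 50 after it, were at hand for 9 of the 10 genes, all but Hey1. They were searched on both strands for TGGGAA, the core of the Rbpj motif, and for GTGGGAA, which contains it. Hey2 was the gene of the 9 with a match, and it had 2 matches to the longer form, printed in capitals, at chr10:30842734-30843033 on the minus strand:

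Hey2: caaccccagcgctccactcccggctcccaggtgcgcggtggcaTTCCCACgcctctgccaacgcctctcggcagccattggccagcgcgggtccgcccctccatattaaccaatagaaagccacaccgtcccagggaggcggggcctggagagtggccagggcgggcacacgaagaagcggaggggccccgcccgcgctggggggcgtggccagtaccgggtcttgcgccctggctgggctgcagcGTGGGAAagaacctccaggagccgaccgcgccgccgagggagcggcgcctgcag

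The first match lies on the opposite strand, from base -207 to base -201 counted from the start of the gene, and the second reads along the gene and spans the start, from base -4 to base 3. Of 32851 mouse promoter windows of 300 bases, 25.6% held TGGGAA at least once and 6.38% held GTGGGAA, while 0.256% held the longer form at least 2 times. These matches describe the letters of the window and are not measured binding.

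Of the 10 genes, 8 lay above the median of their array on all 8 arrays (medians 3.59 to 3.65) and were tested. Dll4 and Jag2 lay under it on all 8 and were not. In the limma fit, which took the replicate number as a block, 0 of the 8 genes passed an adjusted p of 0.05 (Benjamini-Hochberg over 12416 genes), as did 0 of all genes tested (0%), the smallest adjusted p being 0.0717 (without the block 4 of all genes passed, none of them among the 8). At an unadjusted p under 0.05 there were 2 of the 8, Hey1 and Hey2, both higher in ventral tissue, against a background of 8.26% of all genes tested in either direction and 4.08% higher in ventral tissue. For 1 of the 8, Hey2, every ventral array was above every dorsal array, as for 2.01% of all genes tested, and the groups of the others overlapped. The 8 differences ran from -0.35 to 0.81 with a median of 0.13 (5 above 0, 3 below), and the middle 90% of all genes tested ran from -0.47 to 0.50 around a median of 0.00. Fewer cells of a type and less RNA per cell cannot be told apart in tissue samples such as these.

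**Figure D1:**
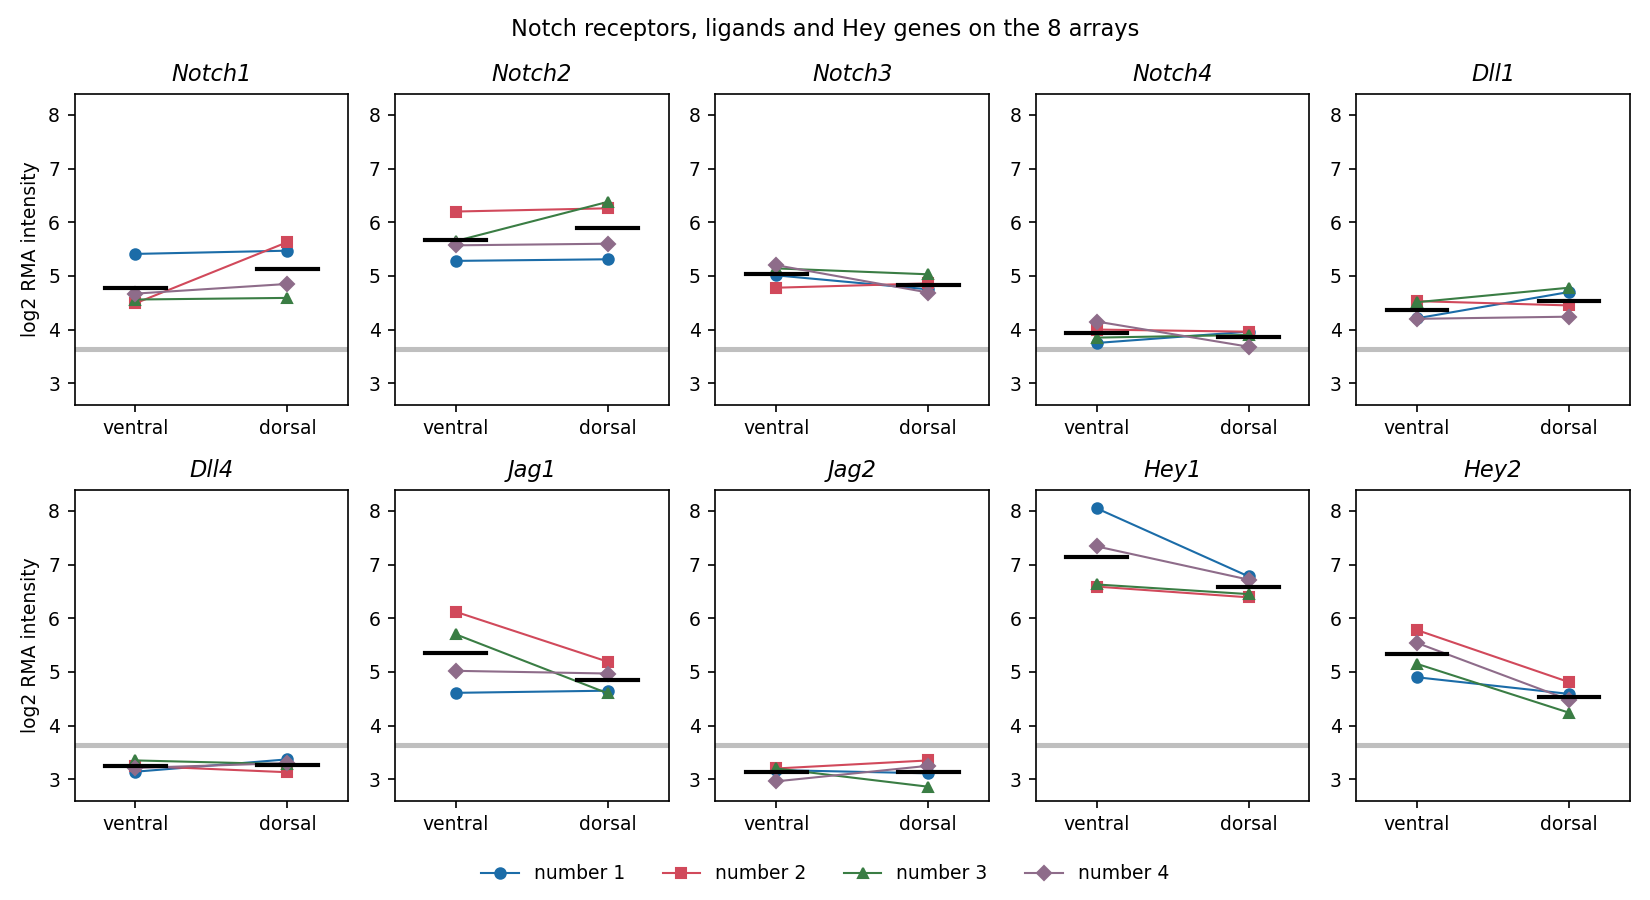
Log2 RMA intensity (vertical axis) of each of the 10 genes in ventral and dorsal tissue. Each point is 1 array, lines join arrays of the same replicate number, black bars are means of 4 arrays and the grey band is the range of the 8 array medians, 3.59 to 3.65. The 4 ventral points of Hey2 lie above its 4 dorsal points, and all points of Dll4 and Jag2 lie under the grey band.

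Among the target genes, Hey2, a bHLH repressor of arterial endothelium and vascular smooth muscle, stood at 4.90, 5.78, 5.15 and 5.54 on ventral arrays 1 to 4 and at 4.59, 4.81, 4.24 and 4.48 on dorsal arrays 1 to 4. Every ventral array was above every dorsal one, with the narrowest gap between ventral array 1 and dorsal array 2. The means were 5.34 ± 0.39 in ventral and 4.53 ± 0.24 in dorsal tissue (SD, n = 4), a difference of 0.81 (SE 0.20, 95% interval 0.35 to 1.28) or 1.76-fold on this scale. In limma its unadjusted p was 0.00426 and its adjusted p 0.303, so Hey2 did not pass the test. It ranked 174 by p and 348 by size among the 12416 genes tested, 97.2% of which had a smaller difference. Without any 1 replicate number, Hey2 differed by 0.73 to 0.98, and the highest value was the one without number 1.

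Hey1, its close relative and likewise a direct Notch target, stood at 8.05, 6.59, 6.63 and 7.34 on ventral arrays 1 to 4 and at 6.78, 6.39, 6.45 and 6.72 on dorsal arrays 1 to 4. Ventral arrays 1 and 4 were above all dorsal arrays and ventral arrays 2 and 3 lay among them, so the groups overlapped. Within each replicate number the ventral array was nevertheless the higher one (4 of 4), by 1.26, 0.20, 0.17 and 0.62 for numbers 1 to 4. The means were 7.15 ± 0.69 in ventral and 6.59 ± 0.19 in dorsal tissue (SD, n = 4), a difference of 0.56 (SE 0.22, 95% interval 0.04 to 1.09) or 1.48-fold, with an unadjusted p of 0.0394 and an adjusted p of 0.578 in limma. Hey1 rested on number 1, without which it differed by 0.33 (unadjusted p = 0.163). With no replicate block the unadjusted p of Hey1 was 0.0968, against 0.00477 for Hey2.

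The Hey genes and the other Notch targets did not share a direction. Heyl, the remaining member of the Hey family and a Notch target of smooth muscle, averaged 4.98 ± 0.31 in ventral and 4.69 ± 0.05 in dorsal tissue (SD, n = 4), a difference of 0.28 (SE 0.19, adjusted p = 0.774) with ventral arrays at 5.40, 4.75, 5.03 and 4.73 and dorsal arrays at 4.72, 4.71, 4.61 and 4.73. Its ventral arrays were the higher ones in 4 of 4 numbers, though in numbers 2 and 4 by 0.04 and 0.00. All of them were above all dorsal arrays, as for 2.01% of all genes tested, but ventral and dorsal array 4 both rounded to 4.73. Hes1, the most widely used Notch target, had 5.92, 5.67, 5.39 and 5.60 on ventral arrays and 5.69, 6.17, 6.10 and 6.15 on dorsal arrays. Its ventral arrays were the lower ones in numbers 2, 3 and 4 and the higher one in number 1. Hes1 differed by -0.38 (SE 0.21, adjusted p = 0.723), and by -0.59 without number 1 (unadjusted p = 0.0266, adjusted p 0.500 to 0.913 over the settings tried). Nrarp, a feedback inhibitor made on Notch activation, averaged 4.16 ± 0.11 in ventral and 4.37 ± 0.15 in dorsal tissue (SD, n = 4), a difference of -0.22 (SE 0.16, adjusted p = 0.790), below 0 in 3 of 4 numbers. Hes5, a target in neural progenitors, exceeded the array median on 1 of 8 arrays and was not tested. The difference between the Hey genes and Hes1 was not tested.

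**Figure D2:**
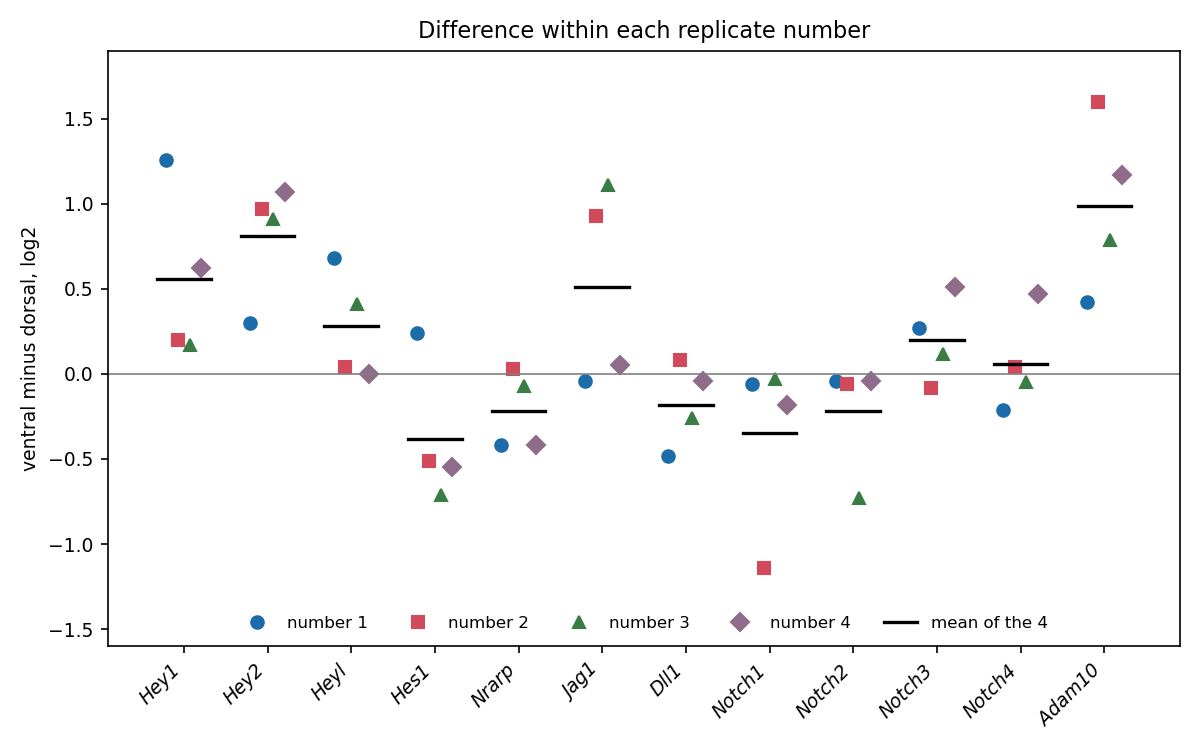
Ventral minus dorsal difference (log2, vertical axis) of 12 genes within replicate numbers 1 to 4. Each point is 1 number and bars are the mean of the 4. All points of Hey1, Hey2 and Adam10 lie above 0, those of Heyl lie at or above 0, and 3 of 4 points of Hes1 and Nrarp lie below it. The mean of Notch1 rests on number 2, at -1.14.

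Of the ligands, Jag1, which acts between endothelium and the smooth muscle around it, stood at 4.61, 6.12, 5.70 and 5.02 on ventral arrays 1 to 4 and at 4.65, 5.19, 4.60 and 4.97 on dorsal arrays 1 to 4. Ventral arrays 2 and 3 were above all dorsal arrays, and ventral arrays 1 and 4 were level with their dorsal partners. The means were 5.36 ± 0.68 in ventral and 4.85 ± 0.28 in dorsal tissue (SD, n = 4), a difference of 0.51 (SE 0.25, 95% interval -0.08 to 1.11, adjusted p = 0.666 in limma). Its spread within tissues, 0.52, was higher than that of 87.2% of all genes tested. Without number 1 Jag1 differed by 0.70 (unadjusted p = 0.0389), and without number 3 by 0.32 (unadjusted p = 0.298).

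Dll1, a ligand of somites and neural progenitors, stood at 4.21, 4.53, 4.51 and 4.20 on ventral arrays and at 4.70, 4.45, 4.78 and 4.24 on dorsal arrays. The groups overlapped, with the ventral array lower in 3 of 4 numbers. Dll1 averaged 4.36 ± 0.18 in ventral and 4.54 ± 0.24 in dorsal tissue (SD, n = 4), a difference of -0.18 (SE 0.17, 95% interval -0.58 to 0.22, adjusted p = 0.845 in limma), or -0.08 without number 1. Dll4, the arterial ligand, ranged from 3.14 to 3.35 in ventral and from 3.13 to 3.37 in dorsal tissue. Jag2 ranged from 2.96 to 3.20 in ventral and from 2.86 to 3.35 in dorsal tissue. Both lay under the array medians throughout, where background makes up much of an intensity and a fold change has little meaning. With no filter on low values Dll4 differed by -0.03 (95% interval -0.31 to 0.25) and Jag2 by -0.01 (95% interval -0.33 to 0.31).

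Of the receptors, Notch1, which is required for blood stem cells to form in the aorta, stood at 5.41, 4.49, 4.56 and 4.67 on ventral arrays 1 to 4 and at 5.47, 5.63, 4.59 and 4.85 on dorsal arrays 1 to 4. The ventral array was the lower one in 4 of 4 numbers, but by 0.03 to 0.18 in numbers 1, 3 and 4 and by 1.14 in number 2. Notch1 averaged 4.78 ± 0.43 in ventral and 5.13 ± 0.50 in dorsal tissue (SD, n = 4), a difference of -0.35 (SE 0.24, 95% interval -0.91 to 0.20, adjusted p = 0.772 in limma), or -0.09 without number 2. Both tissues of number 1 were high in Notch1 (5.41 ventral, 5.47 dorsal), as was dorsal array 2.

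Notch2, a widely expressed receptor, also had the lower value on the ventral array in 4 of 4 numbers, by 0.04 to 0.06 in numbers 1, 2 and 4 and by 0.73 in number 3. Its values were 5.28, 6.20, 5.65 and 5.57 on ventral arrays and 5.31, 6.26, 6.38 and 5.60 on dorsal arrays, and in numbers 1, 2 and 4 the spread between the numbers was wider than the gap between the tissues. Notch2 differed by -0.22 (SE 0.20, 95% interval -0.69 to 0.25, adjusted p = 0.836 in limma), and by -0.05 without number 3. The sizes of the differences of Notch1 and Notch2 thus each rested on 1 replicate number.

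Notch3, the receptor of vascular smooth muscle and pericytes, stood at 5.01, 4.78, 5.14 and 5.20 on ventral arrays and at 4.75, 4.86, 5.03 and 4.69 on dorsal arrays. The groups overlapped and the ventral array was higher in 3 of 4 numbers. Notch3 averaged 5.03 ± 0.19 in ventral and 4.83 ± 0.15 in dorsal tissue (SD, n = 4), a difference of 0.20 (SE 0.18, 95% interval -0.23 to 0.63, adjusted p = 0.833 in limma), or 0.10 without number 4. Notch4, a receptor largely restricted to endothelium, ranged from 3.75 to 4.15 in ventral and from 3.68 to 3.96 in dorsal tissue, close above the array medians on all 8 arrays. It differed by 0.06 (SE 0.16, 95% interval -0.31 to 0.44, adjusted p = 0.955 in limma), with 2 numbers above 0 and 2 below, and it stood at -0.07 without number 4. The 2 receptors had a narrow spread within tissues, 0.17 for Notch3 and 0.16 for Notch4, below the median of 0.28 over all genes tested.

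From array to array the members followed no common order. Over the 8 arrays, which include the tissue difference, 12 of the 28 pairs of tested members had a Pearson correlation above 0 and 15 one below 0. The highest was that of Jag1 and Hey2 (r = 0.74, Spearman's rho 0.74), and the lowest that of Notch2 and Hey1 (r = -0.70, rho -0.95). Hey1 and Hey2 correlated at r = 0.19 (rho 0.21). Hey1 was highest on ventral arrays 1 and 4, while Hey2 was highest on ventral arrays 2 and 4. Among 10771 tested protein-coding genes, those whose values were most like Hey2 over the 8 arrays were Zfpm2 (r = 0.977), a cofactor of GATA factors, Gusb (0.965) and Defb36 (0.959). Those most like Jag1 were Rsph9 (0.951), Ptp4a2 (0.947) and Purb (0.939), and those most like Hey1 were Usp39 (0.956), H1f2 (0.955) and Bex2 (0.954). For Notch1 they were Hsd17b11 (0.955), Unc45a (0.944) and Phip (0.941), and for Notch2 they were Thsd1 (0.972), Cenpq (0.963) and Defa27 (0.955). For Notch3 they were Zfp637 (0.944), Tab2 (0.936) and Lcp2 (0.920), for Notch4 Sptssa (0.976), Rpgr (0.950) and Vegfc (0.946), and for Dll1 Afap1 (0.959), Lrp12 (0.933) and Ddx49 (0.930). With n = 8 arrays and so many genes compared, these coefficients are the upper end of a wide range and describe these arrays alone.

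The rest of the pathway was described with 50 further genes, of which 48 are in the table and 39 were tested. Of the 39, 20 were higher and 19 lower in ventral tissue with a median difference of 0.02, and 0 passed an adjusted p of 0.05. At an unadjusted p under 0.05 in limma there was 1, Adam10, higher in ventral tissue. Over all genes tested, 8.26% were at that level in either direction and 4.08% higher in ventral tissue. Adam10, the sheddase that cuts ligand-bound Notch receptors, stood at 7.59, 8.50, 8.03 and 8.51 on ventral arrays 1 to 4 and at 7.18, 6.90, 7.25 and 7.33 on dorsal arrays 1 to 4. Every ventral array was above every dorsal one, as for 2.01% of all genes tested. Adam10 averaged 8.16 ± 0.44 in ventral and 7.17 ± 0.19 in dorsal tissue (SD, n = 4), a difference of 0.99 (SE 0.21, 95% interval 0.49 to 1.50) or 1.99-fold, with an unadjusted p of 0.00224 and an adjusted p of 0.249 in limma. It ranked 111 by p among all genes tested. Adam17, a related sheddase, differed by -0.11 (SE 0.22).

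**Figure D3:**
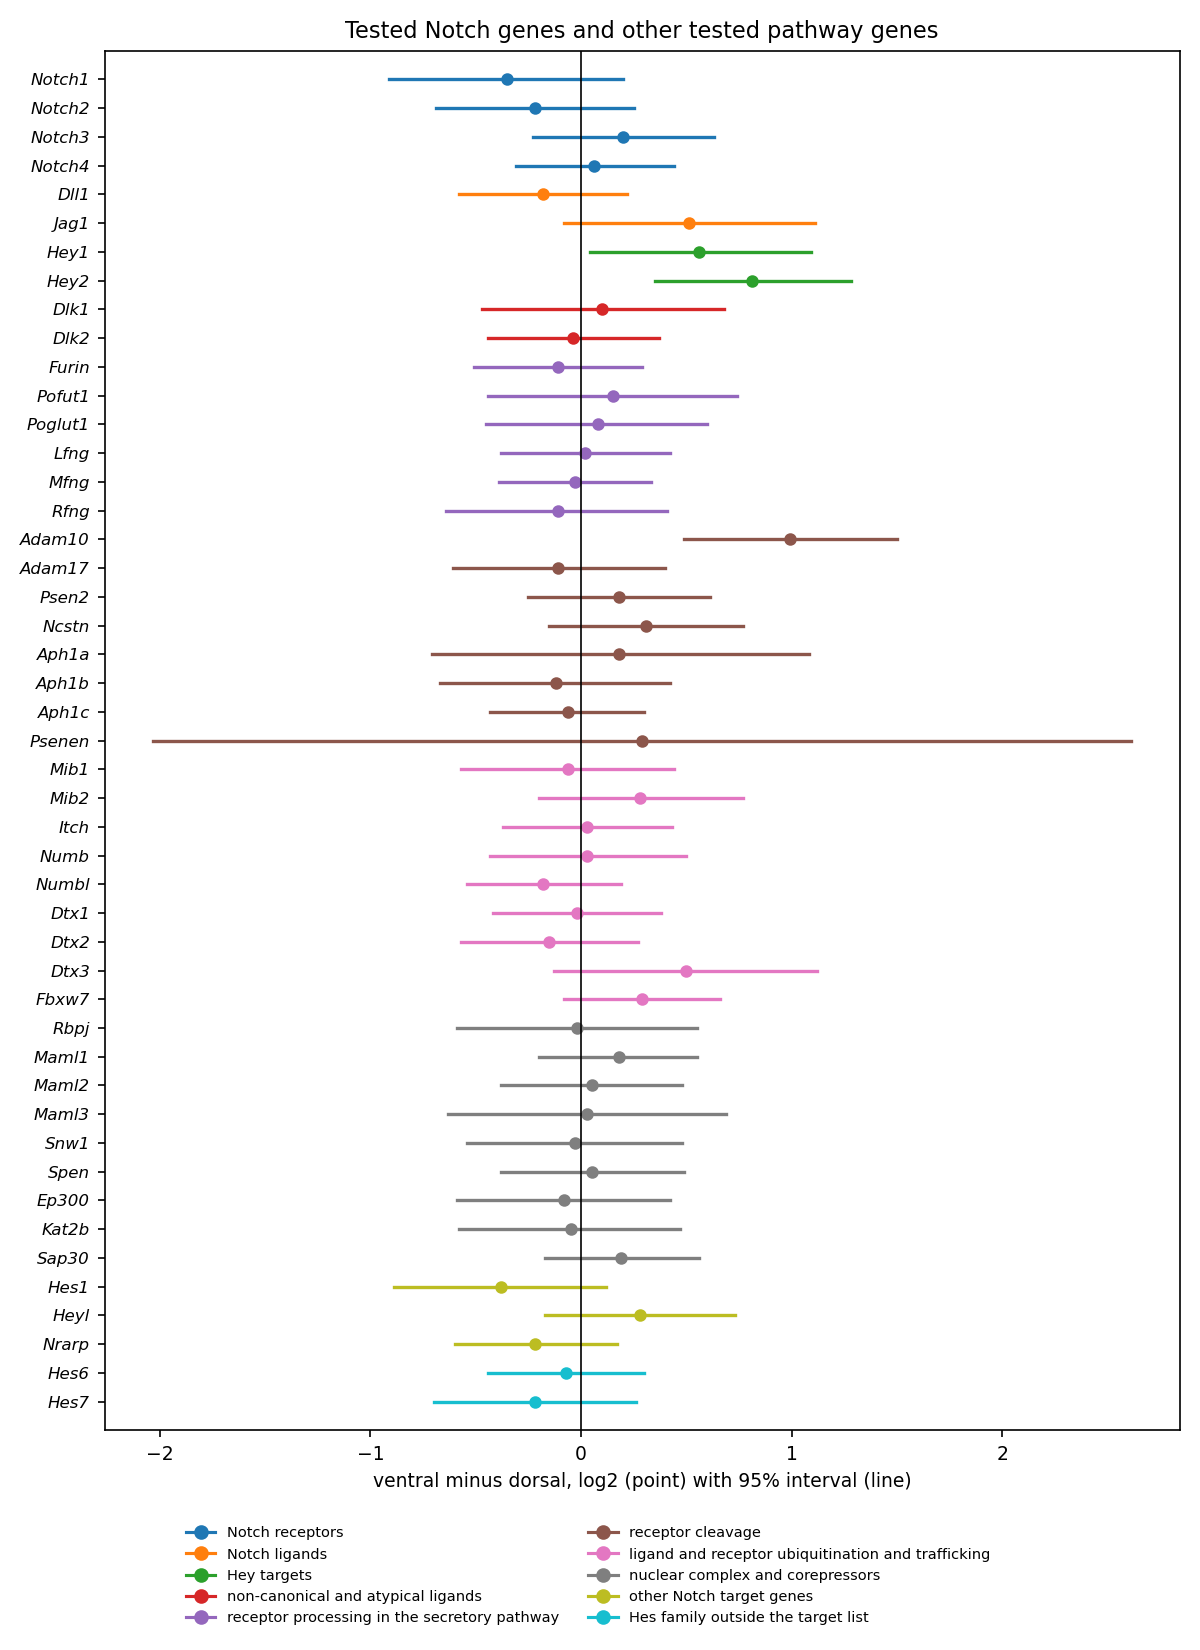
Ventral minus dorsal difference (log2, horizontal axis) of the 8 tested Notch genes and the 39 other tested pathway genes. Points are the limma estimates, lines their 95% intervals and colours the role in the pathway. The intervals of Hey1, Hey2 and Adam10 lie above 0, without adjustment for the number of genes tested, and the others cross it. The widest is that of Psenen.

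Of the other genes of receptor cleavage, the gamma-secretase subunits Ncstn and Psen2 differed by 0.31 (SE 0.20) and 0.18 (SE 0.18). Psenen, a further subunit, had the widest interval of the pathway genes tested (-2.03 to 2.61), since its values ran from 4.94 to 9.81 in ventral and from 6.05 to 8.87 in dorsal tissue. The modifiers of receptors in the secretory pathway spanned -0.11 to 0.15, among them the protease Furin (-0.11), the fucosyltransferase Pofut1 (0.15) and the Fringe glycosyltransferases Lfng (0.02), Mfng (-0.03) and Rfng (-0.11). The nuclear genes spanned -0.08 to 0.19, with Rbpj at -0.02 (SE 0.24, 95% interval -0.59 to 0.55), the coactivators Maml1 at 0.18 and Ep300 at -0.08, and Sap30, a subunit of a histone deacetylase complex, at 0.19. In the list of ubiquitination and trafficking, 9 of 13 genes were tested and Dtx3, a Deltex E3 ligase, had the smallest p (0.50, SE 0.27, unadjusted p = 0.103), followed by Fbxw7, which marks the active Notch fragment for breakdown (0.29, SE 0.16), and the ligase Mib2 (0.28, SE 0.21). The ligand relatives Dlk1 and Dlk2 differed by 0.10 (SE 0.24) and -0.04 (SE 0.17), while Dll3 and Dner were above the array median on 3 and 1 of 8 arrays and were not tested. Of the other Hes genes, Hes6 differed by -0.07 and Hes7 by -0.22 (SE 0.20).

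Marker lists of cell types known to carry these genes were set beside them. Over all genes tested, 49.2% were higher in ventral tissue, and 4.08% were higher at an unadjusted p under 0.05 in limma. Of 16 endothelial markers 13 were tested, 11 of them higher in ventral tissue and 1 of them at an unadjusted p under 0.05 (Kdr, the VEGF receptor, 0.85, SE 0.30, adjusted p = 0.517), with a median difference of 0.16. The mean of the endothelial list ranged from 4.51 to 4.89 on ventral and from 4.05 to 4.95 on dorsal arrays, and Esam and Cldn5 lay under the median on all arrays. The endothelial cadherin Cdh5 differed by 0.07, Pecam1 by 0.37 and the angiopoietin receptor Tek by -0.62. Arterial markers, of which 7 of 9 were tested, had a median of 0.14 and 0 at an unadjusted p under 0.05, with the connexin Gja5 at -0.52 (SE 0.23), the netrin receptor Unc5b at 0.42, Sox17 at 0.32, the ephrin Efnb2 at 0.11 and Gja4 at -0.01. The arterial list mean ranged from 4.42 to 4.78 on ventral and from 4.35 to 4.62 on dorsal arrays, and Bmx lay under the median on all arrays. Venous and lymphatic markers had a median of -0.08 (7 tested), with Nr2f2, which represses Notch in veins, at 1.22 (SE 0.43, adjusted p = 0.519) and the receptors Aplnr and Ephb4 at -0.74 and -0.32, and the list means of the 2 tissues overlapped.

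Markers of smooth muscle and mural cells lay in the same direction as the Hey genes. Of 12 tested, 11 were higher in ventral tissue, 5 of them at an unadjusted p under 0.05, and 1 was lower at that level. The shares over all genes tested were 49.2% higher and 4.08% higher at that level. The median difference of the 12 was 0.53. Their list mean ranged from 5.09 to 5.74 on ventral and from 4.59 to 4.94 on dorsal arrays, without overlap. By number it differed by 0.44, 0.80, 1.03 and 0.73, beside 0.30, 0.97, 0.91 and 1.07 for Hey2 and 1.26, 0.20, 0.17 and 0.62 for Hey1. The gamma actin Actg2 differed by 1.99 (SE 0.32), the pericyte regulator Rgs5 by 2.48 (SE 0.55), smooth muscle actin Acta2 by 0.63 and the pericyte receptor Pdgfrb by 0.29, while the pericyte proteoglycan Cspg4 differed by -0.80 (SE 0.16). None of them passed an adjusted p of 0.05. Macrophage markers (11 of 11 tested genes higher, 4 at an unadjusted p under 0.05) had a list mean of 5.09 to 5.69 on ventral and 4.59 to 5.06 on dorsal arrays. Sympathoadrenal markers (9 of 9 higher, 3 at that level) had a list mean of 4.46 to 7.08 on ventral and 4.44 to 4.94 on dorsal arrays. That mean was highest on ventral array 1, the array where Hey1 was highest. On ventral arrays 3 and 4 it was 6.07 and 5.13, beside 6.63 and 7.34 for Hey1. Rgs5 stood at 8.35, 4.52, 7.21 and 5.60 on ventral arrays 1 to 4, in the same order as the sympathoadrenal list mean. Pdgfrb, at 4.78, 5.92, 6.56 and 6.02, did not follow that order. The part of these cell types in the differences of the Hey genes, Jag1, Adam10 and Rgs5 was not tested.

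**Figure D4:**
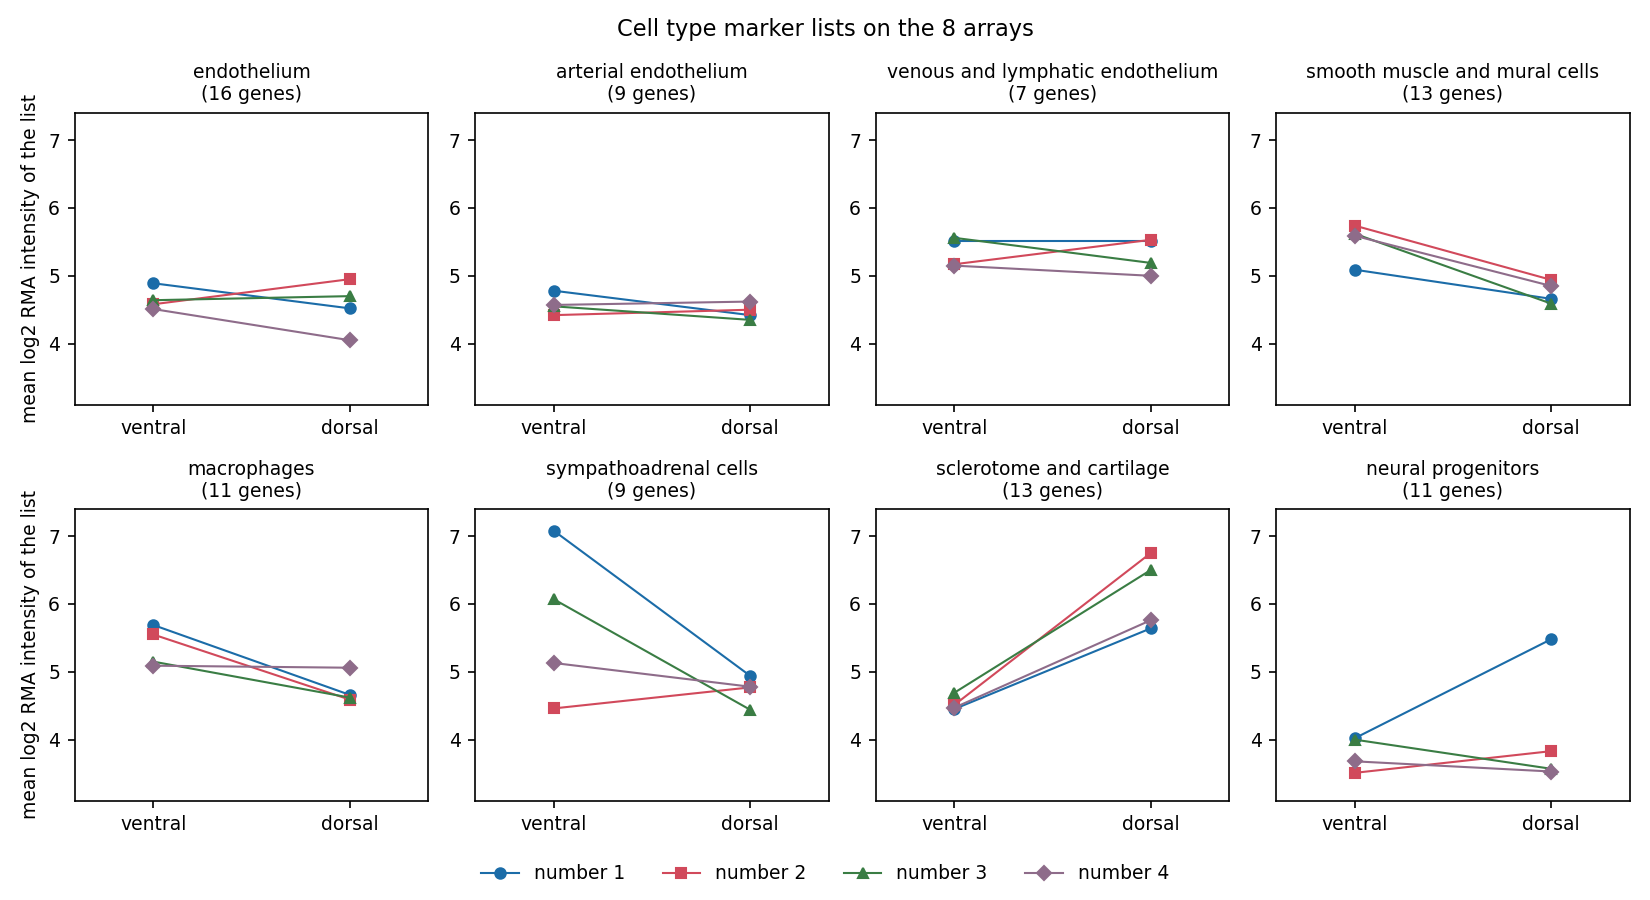
Mean log2 RMA intensity (vertical axis) of 8 lists of cell type markers in ventral and dorsal tissue. Each point is 1 array and lines join arrays of the same replicate number. The smooth muscle and mural list lies at 5.09 to 5.74 on ventral and 4.59 to 4.94 on dorsal arrays, while the ranges of the 3 endothelial lists overlap between the tissues.

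The labelled positions were checked against other lists. Genes of sclerotome and cartilage, the tissue between aorta and notochord, were lower in ventral tissue in 12 of 12 tested cases, 11 of them at an unadjusted p under 0.05. Of all 12416 genes tested, 6304 were lower, 519 of them at that level. The list means of sclerotome and cartilage were 4.45 to 4.69 on ventral and 5.64 to 6.75 on dorsal arrays. The notochord gene Noto lay under the median on all arrays. The tested genes of the notochord list were higher in ventral tissue in 3 of 3 cases, against the labelled positions. Their differences were small, 0.05 to 0.29 with a median of 0.08, and 0 were at an unadjusted p under 0.05 in limma. The notochord list means overlapped, at 3.47 to 4.04 on ventral and 3.49 to 3.72 on dorsal arrays, so this list did not set dorsal tissue apart. Some arrays stood apart: neural progenitor markers averaged 5.48 on dorsal array 1 (3.51 to 4.02 on the other 7), and liver markers averaged 6.36 on ventral and 8.18 on dorsal array 4 (3.33 to 3.44 on the other 6). The neural list was uneven on dorsal array 1, with Fabp7 at 11.18 and Sox2 at 7.83. Fabp7 was not confined to replicate number 1. It was at 8.22, 4.43, 7.68 and 6.55 on ventral arrays 1 to 4 and at 5.52, 4.13 and 3.21 on dorsal arrays 2 to 4. Sox1, Pax6 and Olig2 of that list lay at or under the median on all arrays. The mesonephros list mean was also highest on dorsal array 1, at 4.00. Without replicate number 1 Hey2 differed by 0.98 and Hey1 by 0.33, and without number 4 Hey2 differed by 0.73 and Hey1 by 0.54 (unadjusted p = 0.0944). Adam10 differed by 1.19 without number 1 and by 0.93 without number 4.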

How the data were processed

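Expression was measured on 8 one-colour arrays. The deposited values are log2 intensities that the authors made with Affymetrix Expression Console and RMA, per the submitters' processing notes, with no version given in the sources used here. Per the labels' protocols, 200 to 1000 pg of RNA was amplified first, which can add spread for weak genes. RMA makes the arrays' distributions equal, so differences are relative to other genes. Rows carry Entrez numbers, the platform table named 24675 of 25429, and the array definition and build are not given in the sources used here. The number of arrays limits the precision.

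Genes above the array median on at least 4 of 8 arrays were tested (12416, or 50.3% of named genes) with limma 3.58.1 in R 4.3.3 (lmFit, eBayes with trend and robust estimation), two-sided, taking the replicate number as fixed block. By the labels the 2 tissues share their embryos, which is why the block was kept, but no label ties a number to 1 embryo. Same-numbered arrays' deviations from tissue means correlated at 0.11, 0.03, 0.02 and 0.12, and those of differently numbered arrays at -0.126 to 0.102. The consensus correlation of same-numbered arrays was 0.0311, so the values themselves show little pairing by number. Where a number is not 1 embryo, p-values reflect spread among these samples alone, which may be technical. The fit was tested on simulated independent arrays with no replicate effect and with shifts larger than those of the Notch genes. That test says nothing about power at the sizes seen here. Slides and scan dates were not used.

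The 10 genes and all lists were chosen with earlier results of these data known. Genes named are the 10, up to 3 of smallest p per list described, fixed markers (Cdh5, Acta2, Rbpj and others) and the 3 tested coding genes most correlated with each tested member. Lists are described by counts and medians, with no set test. Adam17, Psenen, Dll3, Dner, Esam, Cldn5, Bmx, Noto, Fabp7, Sox2, Sox1, Pax6 and Olig2 were named after their values were seen. Of the 50 further pathway genes, 2 were not analysed here.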

Additional observations from a re-analysis of the deposited data

Results flagged for a closer look

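In groups of 4 arrays, the highest or lowest array was compared with the others by Dixon's ratio, which chance passes in about 1 of 20 groups. Of 110 groups of genes named here, 6 passed, and of the 20 groups of the 10 Notch genes, 1 did. Jag2 was at 2.96 on ventral array 4, against 3.17 to 3.20 on the other ventral arrays, all of them under the array medians. Hes1 was at 5.69 on dorsal array 1, against 6.10 to 6.17 on the other dorsal arrays. This is the array on which the neural progenitor list mean was highest. Unc5b was at 3.29 on the same dorsal array 1, against 3.77 to 3.84 on the others. Sox17 was at 4.90 on ventral array 2, against 4.49 to 4.54, and Mib2 was at 4.63 on that array, against 3.70 to 3.86. Pofut1 was at 5.17 on dorsal array 4, against 5.54 to 5.61. Hey1, Hey2, Jag1 and the 4 receptors had no such array.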

How the results depend on the processing

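The 8 tested Notch genes and 45 others were followed through 19 alternative settings, of which 4 left out a replicate number, 8 left out 1 array with no block and 7 changed the filter, the block, the moderation, the weights or the centring. Of the 53 genes, 38 kept their direction in all settings they entered, among them Hey1, Hey2, Jag1, Notch1, Notch2, Notch3, Dll1, Adam10, Hes1, Heyl and Nrarp. In every setting 0 Notch genes passed an adjusted p of 0.05. Hey2 had an unadjusted p under 0.05 in all 18 alternatives that tested it (adjusted p 0.192 to 0.694), and Hey1 had one in 8 of 19 (adjusted p 0.494 to 0.857). The number of Notch genes at that level was 2, but 1 with no replicate block, with a random replicate block, with array weights and with a mean above the 75th percentile, a filter that Hey2 did not enter. It was 1 to 2 when a number or an array was left out. The number of other pathway genes there was 1, 2 with no filter and 1 to 3 with arrays left out. For all genes, 0 passed the adjusted p, against 4 with no replicate block, 4 with a random replicate block, 10 with the stricter filter and 0 to 20 with arrays left out, the highest without ventral array 1. Why these counts moved was not tested.

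Differences close to 0 changed sign when arrays were left out. Their ranges were -0.0734 to 0.154 for Notch4, -0.1988 to 0.2181 for Dlk1, -0.1776 to 0.1323 for Dlk2, -0.1352 to 0.2887 for Pofut1, -0.25 to 0.0796 for Rfng, -0.0281 to 0.2686 for Psen2 and -0.3145 to 0.0685 for Ep300. They were -0.1936 to 0.081 for Hes6, -0.2394 to 0.4851 for Cdh5, -0.1535 to 0.5451 for Efnb2, -0.0815 to 0.0544 for Gja4, -0.0111 to 0.6389 for Pdgfrb, -0.0411 to 0.1557 for Lfng and -0.1539 to 0.0668 for Mfng. Rbpj ranged from -0.246 to 0.1727 and was at 0.0591 with array weights. The cause was not tested. With 4 arrays per tissue the median standard error over all genes tested was 0.19, and signal near background limits Dll4, Jag2 and Notch4.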
